A study of Mus musculus with 13 samples.

Results

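The potassium channel genes of the mouse heart were followed through 3 genotypes of the muscle enzyme CPT1B. They were taken as the gene symbols that start with Kcn, go on with lower-case letters and a digit, and had a mean over all libraries of at least 0.5 CPM, the read count scaled to library size. Of 24061 symbols counted, 96 fitted the pattern and 51 reached the level: 20 of 40 voltage-gated genes, 9 of 15 inward rectifiers, 6 of 14 tandem-pore genes, 6 of 8 calcium-activated genes and 8 of 15 beta subunits. The other 2 were Kcnq1ot1 and Kcnd3os, transcripts from the Kcnq1 and Kcnd3 loci that encode no channel. Kcne1l, a protein-coding gene below the limit at 0.308 CPM, was also kept outside the classes, so the class counts leave it out. Just inside the limit were Kcnk4 at 0.511, Kcnj4 at 0.530 and Kcnq5 at 0.531 CPM, and just outside it were Kcnk7 at 0.482 and Kcnma1 at 0.416 CPM. Of the 45 genes below the limit, 4 had no read in any library. All 51 genes had reads in every library and passed the filter on low counts in both fits below.

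RNA came from 5 E3A/E3A, 4 WT/E3A and 4 WT/WT hearts, 1 library a heart, of male C57BL/6N mice 13 weeks old on chow. E3A, a knock-in allele, makes CPT1B, the carnitine palmitoyltransferase at the entry of fatty acids into mitochondria, less sensitive to malonyl-CoA, its inhibitor. E3A/E3A mice carry it on both copies, WT/E3A mice on 1 copy and WT/WT mice on neither, and the labels name no other allele or agent. The labels give the tissue as heart and do not say which chambers were taken or at what time of day.

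Potassium channels let potassium leave the cardiomyocyte and so end the action potential and hold the resting potential. Voltage-gated channels carry the transient outward and delayed rectifier currents, inward rectifiers set the resting potential or respond to ATP and acetylcholine, and tandem-pore channels leak at all voltages. Calcium-activated channels open when intracellular calcium rises, and beta subunits change the traffic and gating of the pore subunits. In the mouse ventricle the fast transient outward current shapes most of the short action potential.

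The labels mark 4 libraries as potential outliers: E3A/E3A replicates 1 and 2, WT/E3A replicate 1 and WT/WT replicate 1. Their cardiomyocyte markers summed to 113500 to 166900 CPM, against 70380 to 80030 CPM in the other 9 libraries. Of the 7 markers, 3 lay wholly above the range of the other 9 libraries and 1 wholly below it. Myh6, 1 of the 7, alone took 6.59 to 9.49% of the reads of the noted libraries, against 3.9 to 4.61%. No library was a copy of another. Depth was 20.1 to 52.6 M counted reads, and the 51 genes together took 0.181 to 0.209% of them. Counts of genes called by edgeR in the genotype comparisons are therefore given over 13 libraries and over the 9 without this note, 3 a genotype. Fits of single genes are over the 9 libraries where 13 is not stated. In whole tissue, fewer cells of a type and less RNA per cell cannot be told apart.

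Per kilobase of exon, the tandem-pore gene Kcnk3 stood above the other 50 genes. Its level was 101 CPM per kb on average over the 9 libraries, between 95.6 and 106. Kcnk3 encodes an acid-sensitive background channel. Next came Kcnip2 at 65.8 CPM per kb, the cytoplasmic partner of the channels that carry the fast transient outward current, then Kcng2 at 60.8, a silent subunit that forms channels only with other voltage-gated pores, and Kcnj11 at 53.7, the pore of the ATP-sensitive channel of cardiomyocytes. The range of Kcng2 (49.9 to 67.7 CPM per kb) overlapped those of Kcnip2 (59.8 to 75.1) and Kcnj11 (50.2 to 56.7), while Kcnip2 stayed above Kcnj11. A second tier included Kcnh2 at 25.6, Kcnj5 at 23.8, Kcnj12 at 19.3, Kcnj8 at 17.5, Kcnj2 at 13.9, Kcna5 at 13.1 and Kcnq1 at 12.1 CPM per kb. Among these each gene overlapped the next one in order, except that Kcnj5 (22.5 to 25.5 CPM per kb) stayed above Kcnj12 (17.0 to 20.6). The lowest member per kilobase was Kcnc1 at 0.0525 CPM per kb, a channel gene known from fast-spiking neurons.

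**Figure D1:**
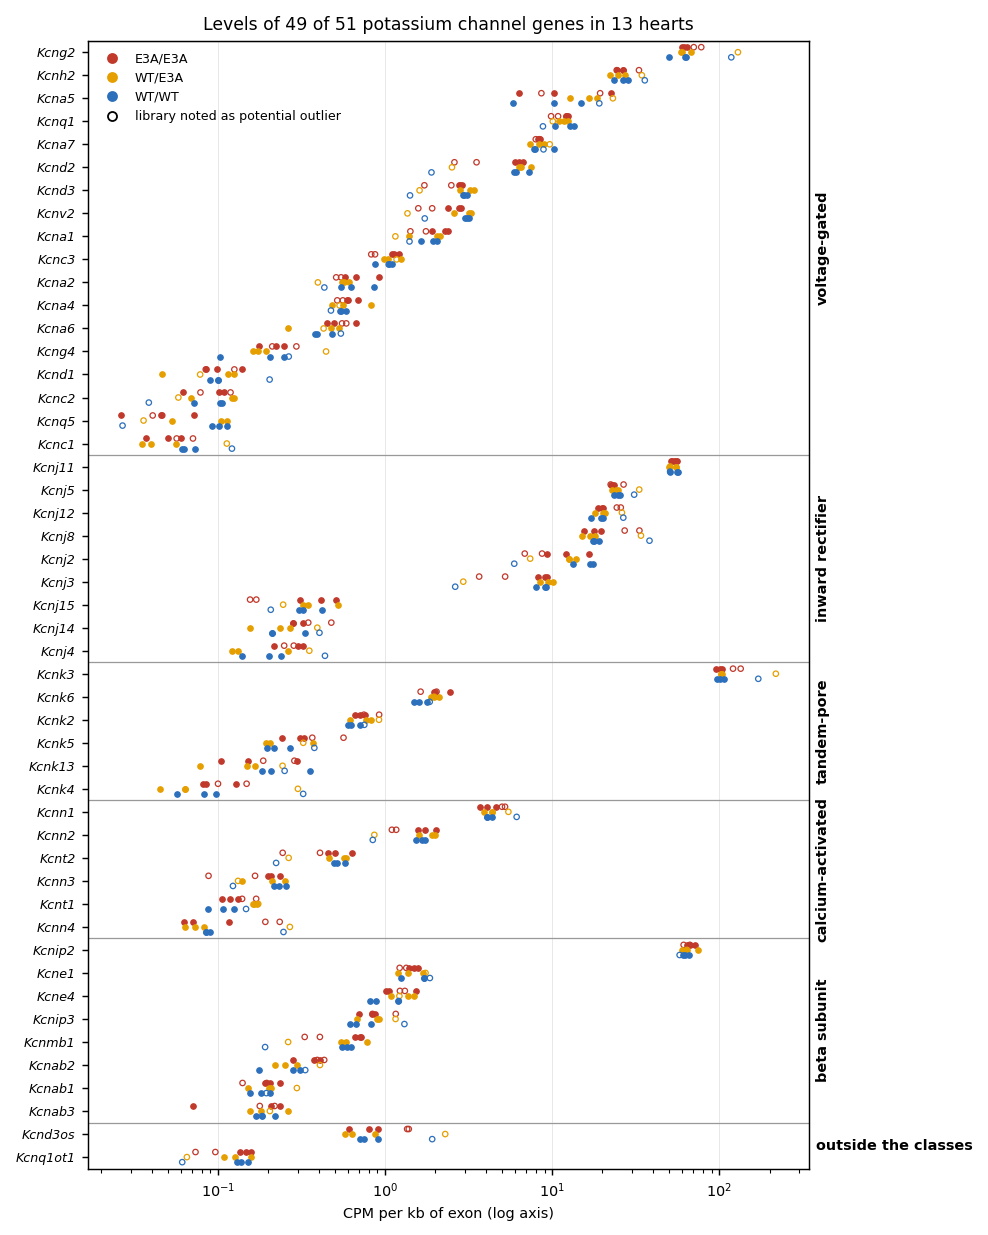
Level of 49 of the 51 genes in 13 hearts in CPM per kb of exon, on a log axis, with genes ordered by level within their class. Filled points are the 9 libraries without the potential outlier note, open points the 4 noted ones; Kcnk3 lies at 95.6 to 106 CPM per kb in the 9 libraries, and Kcna5 spreads from 5.83 to 22.6.

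In 2 of the classes 1 gene made up most of the reads. Kcnk3 held 96.8% of the summed tandem-pore CPM and Kcnip2 93% of the summed beta subunit CPM in the 9 libraries, while Kcng2 held 28% of the voltage-gated sum. The summed voltage-gated CPM averaged 648 ± 23.7 in E3A/E3A, 663 ± 31.4 in WT/E3A and 637 ± 31.1 in WT/WT (SD, n = 3 each). The inward rectifier sum was 520.4 ± 25.3 in E3A/E3A, 527 ± 20.0 in WT/E3A and 549 ± 37.9 in WT/WT, and the tandem-pore sum was 413 ± 16.9, 421 ± 3.01 and 414 ± 18.4 in the same order. The calcium-activated sum was 39.6 ± 3.21 in E3A/E3A, 40.6 ± 1.84 in WT/E3A and 39.0 ± 1.79 in WT/WT. For the beta subunits it was 254 ± 13.05, 248 ± 28.2 and 235.4 ± 8.07 in the same order, and the E3A/E3A mean exceeded the WT/WT mean by more than either SD. The 3 genotypes overlapped in all 5 sums, and for the beta subunits the hearts ran from 241.5 to 267.5 in E3A/E3A and from 229.1 to 244.5 in WT/WT. With the noted libraries the tandem-pore sum spread far more in each genotype. Over 13 libraries it was 457 ± 64.0 in E3A/E3A, 536 ± 231 in WT/E3A and 484 ± 142 in WT/WT (SD, n = 5, 4 and 4). The voltage-gated sum was 648 ± 19.5, 716 ± 108 and 683 ± 96.2 in the same order. It spread far more in WT/E3A and WT/WT but not in E3A/E3A.

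No potassium channel gene passed edgeR's test in any of the 3 genotype comparisons. Comparisons are given as 1 genotype over another. In E3A/E3A over WT/WT, edgeR's quasi-likelihood test called 0 of 51 genes at an adjusted p under 0.05 over 13 libraries, where 0.00695% of the 14387 genes tested were called, and 0 over 9 libraries, where the share was 0.271%. In WT/E3A over WT/WT it called 0 of 51 in both sets of libraries (0% and 0.0209% of all genes), and in E3A/E3A over WT/E3A again 0 of 51 in both (0% and 0.0417%). At an unadjusted p under 0.05 there was 1 gene in each comparison over 13 libraries, 1.96% of the members, beside 1.2%, 0.813% and 1.45% of all genes in the 3 comparisons as listed. Over 9 libraries the counts were 4, 3 and 5, or 7.84%, 5.88% and 9.8% of the members, beside 7.69%, 6.36% and 6.91% of all genes. These shares were near the background. DESeq2 and limma-voom with sample quality weights each called 1 gene over 13 libraries in E3A/E3A over WT/WT, and 0 in the other comparisons. DESeq2 called 0 over 9 libraries. The shares of all genes called by these tools are not given here, so their count of 1 has no background beside it.

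The intervals show how large a difference these hearts could have hidden. Over 9 libraries the 95% interval of the log2 fold change lay within 1 on either side of 0, a 2-fold difference, for 45 of 51 genes in each comparison. It lay within 0.5, a 1.41-fold difference, for 22 genes in E3A/E3A over WT/WT, 26 in WT/E3A over WT/WT and 28 in E3A/E3A over WT/E3A. Over 13 libraries the counts within 0.5 were 12, 12 and 15. The median standard error of the 51 genes in E3A/E3A over WT/WT was 0.274 over 13 libraries and 0.153 over 9. The narrow intervals given below for single genes over 9 libraries therefore do not hold for all 13. The median log2 fold change of the 51 genes was 0.050 for E3A/E3A over WT/WT over 9 libraries, with 27 genes above 0, beside a median of 0.0013 for all genes tested. For WT/E3A over WT/WT it was 0.013 with 28 above 0, beside -0.0013, and for E3A/E3A over WT/E3A 0.036 with 29 above 0, beside 0.0027.

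**Figure D2:**
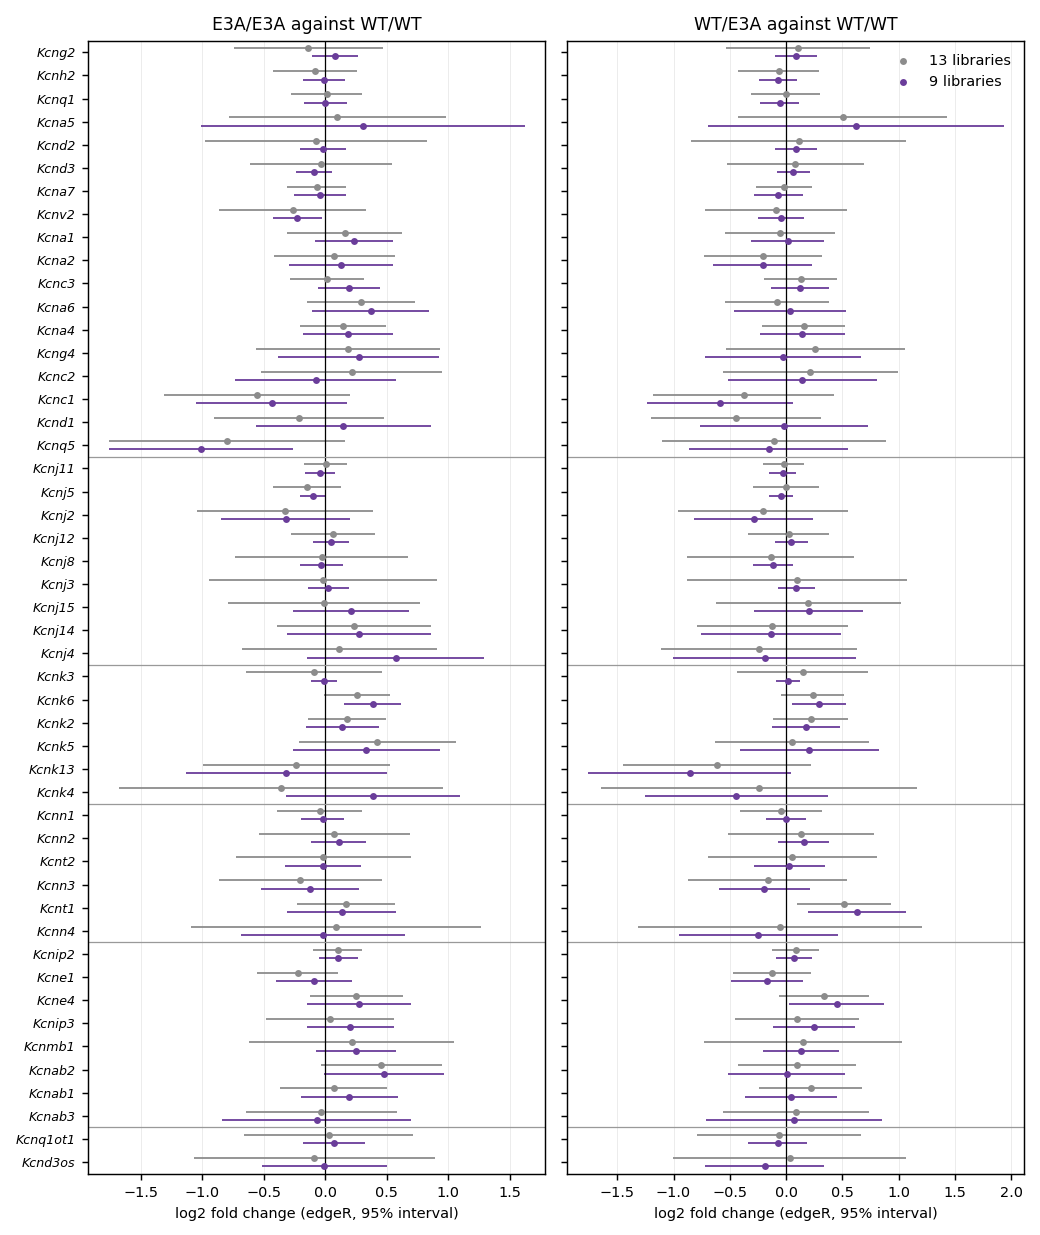
Log2 fold change and 95% interval from edgeR for 49 of the 51 genes, E3A/E3A over WT/WT on the left and WT/E3A over WT/WT on the right, over 13 libraries (grey) and 9 libraries (purple). Most purple intervals are short and cross 0; the Kcnk6 interval, from 0.15 to 0.62 over 9 libraries, lies above 0 in E3A/E3A over WT/WT, and Kcna5 has one of the widest, from -1.01 to 1.62.

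Few genes had genotypes without overlap, and over 9 libraries their share of the members was near or below that of all genes. Over 13 libraries there was 1 gene without overlap in E3A/E3A over WT/WT (1.96% of members, 0.862% of all genes) and 1 in E3A/E3A over WT/E3A (0.994% of all genes). Kcnk6 and Kcnt1 were the 2 in WT/E3A over WT/WT (3.92% of members, 1.14% of all genes). Over 9 libraries the counts were 8, 5 and 4 for E3A/E3A over WT/WT, WT/E3A over WT/WT and E3A/E3A over WT/E3A, or 15.7%, 9.8% and 7.84% of members, beside 14.1%, 12.7% and 11.2% of all genes. In E3A/E3A over WT/WT the lower genes included Kcnd3, Kcnv2, Kcnc1 and Kcnq5, and the higher ones were Kcnk6, Kcna4 and Kcnmb1.

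**Figure D3:**
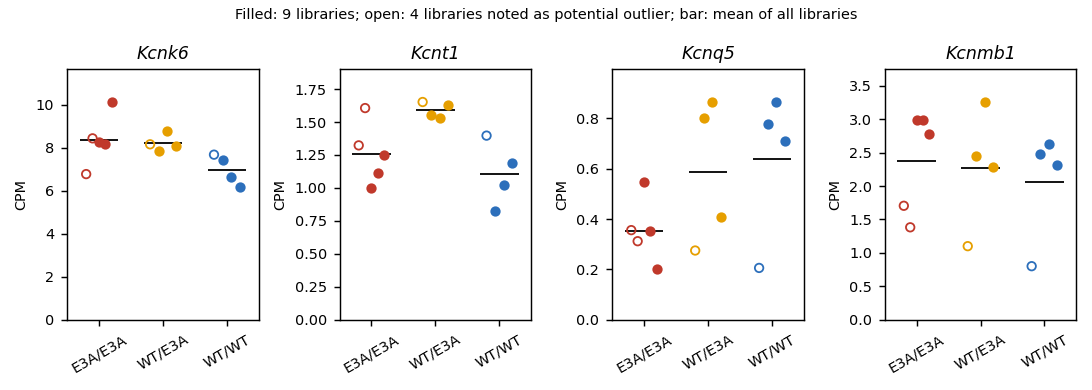
CPM of Kcnk6, Kcnt1, Kcnq5 and Kcnmb1 in each heart by genotype. Filled points are the 9 libraries, open points the 4 noted as potential outliers, and bars the mean of all libraries of the genotype. All 4 WT/E3A hearts lie above all WT/WT hearts for Kcnk6 and Kcnt1, at 7.86 to 8.76 and 1.53 to 1.65 CPM.

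The pores of the transient outward currents did not pass edgeR's test. Kcnd2 and Kcnd3, the pores of the fast transient outward current, averaged 32.6 ± 1.76 and 27.0 ± 0.555 CPM in E3A/E3A, 34.9 ± 3.31 and 30 ± 2.95 CPM in WT/E3A, and 33.1 ± 3.83 and 28.7 ± 0.982 CPM in WT/WT (SD, n = 3 each, 9 libraries). Their log2 fold changes of E3A/E3A over WT/WT were -0.019 (95% interval -0.21 to 0.17) and -0.091 (-0.24 to 0.058). For E3A/E3A over WT/E3A the interval of Kcnd3 lay below 0, at -0.16 (-0.31 to -0.0064, edgeR unadjusted p = 0.0421, adjusted p = 0.717). The 3 E3A/E3A hearts without the note lay just below the WT/WT ones for Kcnd3, and the genotypes overlapped for Kcnd2. Per kilobase, Kcnd2 stood at 6.51 and Kcnd3 at 2.98 CPM per kb on average over the 9 libraries, and Kcna4, the pore of the slow transient outward current, at 0.6004 CPM per kb. Kcna4 averaged 3.03 ± 0.251 CPM in E3A/E3A, 2.99 ± 0.854 in WT/E3A and 2.69 ± 0.130 in WT/WT, with a wider interval of -0.18 to 0.55 for E3A/E3A over WT/WT.

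Kcnh2 and Kcnq1, delayed rectifier pores, had means within the spread between hearts. Kcnh2, the pore of the rapid delayed rectifier, averaged 125 ± 6.46 CPM in E3A/E3A, 120.4 ± 12.1 in WT/E3A and 126 ± 11.5 in WT/WT over 9 libraries, with a log2 fold change of -0.013 (-0.18 to 0.16) for E3A/E3A over WT/WT. Kcng2 and Kcnv2, both silent subunits, averaged 184.5 ± 6.35 and 13.6 ± 1.34 CPM in E3A/E3A, 186 ± 14.6 and 15.3 ± 1.82 CPM in WT/E3A, and 175 ± 22.05 and 15.9 ± 0.436 CPM in WT/WT. Kcnv2 had a log2 fold change of -0.23 (SE 0.0941, edgeR adjusted p = 0.584) for E3A/E3A over WT/WT over 9 libraries. Kcnq1, the pore of the slow delayed rectifier, averaged 49.9 ± 0.987 CPM in E3A/E3A, 48.1 ± 2.9 in WT/E3A and 50 ± 6.54 in WT/WT. Exons of Kcnq1 overlap Kcnq1ot1 and exons of Kcnd3 overlap Kcnd3os, and since the strand setting of the counting is not given in the sources used here, reads of each pair cannot be told apart.

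Low voltage-gated genes gave wider intervals. Kcnq5, a KCNQ pore known from brain and smooth muscle, had 5 to 34 reads a library, and its level was 0.356, 0.312, 0.548, 0.351 and 0.202 CPM in E3A/E3A replicates 1 to 5, against 0.275, 0.800, 0.865 and 0.407 CPM in WT/E3A and 0.206, 0.780, 0.866 and 0.710 CPM in WT/WT. The 3 WT/WT hearts without the note lay above all E3A/E3A hearts, and the noted WT/WT heart lay among the lowest. Its log2 fold change for E3A/E3A over WT/WT was -1.01 (SE 0.348, edgeR adjusted p = 0.415) over 9 libraries and -0.80 (SE 0.441, adjusted p = 1) over 13. Sample titles start with C2, C3, C4 or C6, of unstated meaning. Within prefix C2, whose hearts are all noted, the log2 ratio was 0.70, the other way. Within C3, whose hearts carry no note, it was -1.06, the same way as the fit. Each of these ratios rests on 1 WT/WT heart. Kcna6, a Shaker-family pore, averaged 3.19 ± 0.684 CPM in E3A/E3A, 2.504 ± 0.837 in WT/E3A and 2.48 ± 0.335 in WT/WT (adjusted p = 0.774 against WT/WT). Kcnc1 averaged 0.463 ± 0.107, 0.411 ± 0.105 and 0.617 ± 0.0622 CPM in the same order.

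Kcnj12 and Kcnj2 had the highest levels per kilobase of the inward rectifiers that hold the resting potential. Kcnj2, the main pore of the inward rectifier current in mouse ventricle, stood at 47.3, 37.3, 90.7, 65.8 and 50.6 CPM in E3A/E3A replicates 1 to 5, against 40.2, 76.0, 68.8 and 68.4 CPM in WT/E3A and 32.3, 72.2, 96.1 and 91.9 CPM in WT/WT. The noted hearts of each genotype were its lowest, and among the other 9 the genotypes overlapped. Over 9 libraries edgeR put the log2 fold change at -0.32 (SE 0.218, adjusted p = 0.834) for E3A/E3A and -0.29 (SE 0.219, adjusted p = 0.860) for WT/E3A, both against WT/WT, whose libraries the 2 comparisons share. Kcnj12 averaged 53.7 ± 2.08 CPM in E3A/E3A, 53.7 ± 3.80 in WT/E3A and 51.9 ± 4.47 in WT/WT. Kcnj14 and Kcnj4, of the same group, averaged 0.800 ± 0.0628 and 0.604 ± 0.120 CPM in E3A/E3A, 0.597 ± 0.158 and 0.370 ± 0.170 CPM in WT/E3A, and 0.684 ± 0.192 and 0.415 ± 0.108 CPM in WT/WT.

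The pores of the ATP-sensitive channels had overlapping levels in the 3 genotypes. Kcnj11 averaged 195 ± 9.32 CPM in E3A/E3A, 197 ± 10.3 in WT/E3A and 201 ± 11.5 in WT/WT over 9 libraries, and its log2 fold change of -0.040 for E3A/E3A over WT/WT had an interval of -0.16 to 0.080. Kcnj8, the ATP-sensitive pore of vascular smooth muscle and pericytes, averaged 44.9 ± 5.23, 42.5 ± 3.64 and 46.1 ± 1.94 CPM in the 3 genotypes in that order. Abcc9, the sulphonylurea receptor that both pores can join, averaged 607 CPM in E3A/E3A, 674 in WT/E3A and 691 in WT/WT, with a log2 fold change of -0.19 (SE 0.0521, edgeR adjusted p = 0.239) for E3A/E3A over WT/WT. Abcc8, the other receptor, averaged 72.8 CPM in both.

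Kcnj3 and Kcnj5 together form the acetylcholine-activated channel of atria and pacemaker tissue. Over 9 libraries they averaged 46.4 ± 2.95 and 107 ± 2.24 CPM in E3A/E3A, 48.4 ± 4.30 and 112 ± 4.85 CPM in WT/E3A, and 45.6 ± 3.57 and 115 ± 5.31 CPM in WT/WT. For E3A/E3A over WT/WT, Kcnj5 had a log2 fold change of -0.099 (SE 0.04997, edgeR adjusted p = 0.702). The 6 atrial markers summed to 243 to 490.4 CPM in E3A/E3A, 167 to 325 CPM in WT/E3A and 163 to 280 CPM in WT/WT in these 9 hearts, and the part of atrial tissue in the levels of these genes was not tested.

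Below Kcnk3 the tandem-pore class held 5 genes, the highest of them Kcnk6 at 1.915 CPM per kb. Kcnk3 had 403 CPM in E3A/E3A replicate 5, 413 in replicate 4 and 380.1 in replicate 3, against 405, 406 and 411 CPM in the WT/E3A hearts without the note and 384, 400.2 and 422 CPM in the WT/WT hearts without it. The 3 genotypes lay on top of each other, and the log2 fold changes were -0.013 (interval -0.12 to 0.092) for E3A/E3A and 0.018 (-0.086 to 0.12) for WT/E3A, both against WT/WT. An exon of Kcnk3 overlaps the predicted gene Gm9899. Kcnk2, a stretch-sensitive channel gene, averaged 3.50 ± 0.239 CPM in E3A/E3A, 3.64 ± 0.543 in WT/E3A and 3.17 ± 0.273 in WT/WT. Kcnk13, inhibited by halothane, and Kcnk4, stretch-sensitive, reached at most 1.10 and 0.573 CPM in the 9 libraries, with standard errors of 0.381 and 0.331 on the log2 scale for E3A/E3A over WT/WT.

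Kcnk6, a weakly rectifying tandem-pore channel gene, had an unadjusted edgeR p of 0.00321 in E3A/E3A over WT/WT over 9 libraries. It stood at 6.77, 8.43, 8.27, 8.19 and 10.1 CPM in E3A/E3A replicates 1 to 5, against 8.15, 7.86, 8.76 and 8.10 CPM in WT/E3A and 7.67, 7.41, 6.65 and 6.18 CPM in WT/WT. All WT/E3A hearts lay above all WT/WT hearts, and E3A/E3A replicate 1, a noted library, was the 1 E3A/E3A heart inside the WT/WT range. Over 9 libraries edgeR gave a log2 fold change of 0.38 (SE 0.109, adjusted p = 0.247) for E3A/E3A and 0.29 (SE 0.111, adjusted p = 0.723) for WT/E3A, both against the same WT/WT hearts. Over 13 libraries the values were 0.26 (SE 0.124) and 0.24 (SE 0.130), each with an adjusted p = 1. Within a prefix the log2 ratio of E3A/E3A to WT/WT was -0.014 in C2 and 0.31 in C3, and that of WT/E3A to WT/WT was 0.086 in C3. The WT/WT hearts at 6.65 and 6.18 CPM carry prefix C6, which holds no other genotype, so genotype and prefix cannot be told apart there.

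In the calcium-activated class Kcnn1 and Kcnn2, small-conductance channel genes, had the highest levels per kilobase, 4.17 and 1.75 CPM per kb. Over 9 libraries Kcnn1 averaged 18.9 ± 2.07 CPM in E3A/E3A, 19.3 ± 1.20 in WT/E3A and 19.2 ± 0.835 in WT/WT. Kcnn2 averaged 13.3 ± 1.68, 13.6 ± 1.5 and 12.3 ± 0.776 CPM in the same order. Its exons overlap A330093E20Rik. Kcnma1, the large-conductance pore, was below the limit, while its smooth muscle beta subunit Kcnmb1 averaged 2.92 ± 0.118 CPM in E3A/E3A, 2.66 ± 0.523 in WT/E3A and 2.48 ± 0.162 in WT/WT. Smooth muscle markers summed to 455 to 493.1 CPM in the same E3A/E3A hearts and 406 to 426 CPM in the WT/WT ones, and their part in the Kcnmb1 level was not tested.

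Kcnt1 and Kcnt2, grouped with this class by sequence family, encode channels that open with intracellular sodium. Kcnt1 had 26 to 61 reads a library and stood at 1.32, 1.61, 0.997, 1.11 and 1.25 CPM in E3A/E3A replicates 1 to 5, against 1.65, 1.55, 1.53 and 1.63 CPM in WT/E3A and 1.397, 0.826, 1.02 and 1.19 CPM in WT/WT. The WT/E3A hearts were close to each other and all above the WT/WT hearts; only the noted E3A/E3A replicate 2 reached them. For WT/E3A over WT/WT, edgeR gave a log2 fold change of 0.63 (SE 0.204, adjusted p = 0.667) over 9 libraries and 0.52 (SE 0.191, adjusted p = 1) over 13. Kcnt2 averaged 3.65 ± 0.634 CPM in E3A/E3A, 3.70 ± 0.438 in WT/E3A and 3.65 ± 0.280 in WT/WT, and its exons overlap 4930590L20Rik.

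No beta subunit passed edgeR's test. Kcnip2 averaged 236 ± 13.3 CPM in E3A/E3A, 230.4 ± 27.5 in WT/E3A and 219 ± 8.99 in WT/WT over 9 libraries, with a log2 fold change of 0.11 (SE 0.0738, edgeR adjusted p = 0.827) for E3A/E3A over WT/WT. Kcne1, the partner of Kcnq1, averaged 4.76 ± 0.295, 4.56 ± 0.789 and 5.01 ± 0.865 CPM in the same order. Kcnab2, a cytoplasmic subunit of Shaker channels, averaged 1.98 ± 0.369 CPM in E3A/E3A, 1.43 ± 0.214 in WT/E3A and 1.43 ± 0.389 in WT/WT, and for E3A/E3A over WT/WT its log2 difference was 0.48 (SE 0.227, adjusted p = 0.672). Kcne4, an inhibitory partner of several voltage-gated pores, averaged 3.19 ± 0.766 CPM in E3A/E3A, 3.50 ± 0.569 in WT/E3A and 2.56 ± 0.548 in WT/WT, with 0.45 (SE 0.198, adjusted p = 0.767) for WT/E3A over WT/WT. Outside the classes, Kcnq1ot1 averaged 13.6 ± 1.05, 12.2 ± 2.32 and 12.9 ± 1.004 CPM and Kcnd3os 1.04 ± 0.205, 0.937 ± 0.212 and 1.06 ± 0.137 CPM in E3A/E3A, WT/E3A and WT/WT.

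The 4 noted libraries stood apart from the other 9 for many of the genes. For 18 of 51 genes, 35.3%, they lay wholly outside the range of the other 9, beside 53% of all genes tested. This is a description, since the note in the labels may itself rest on expression. They were lower for 10 genes, 19.6% beside 27.1% of all genes, and higher for 8 genes, 15.7% beside 25.9% of all genes. Kcnd2 had 9.76 to 18.2 CPM in the noted hearts, against 30.3 to 38.7 CPM in the others, and Kcnj3 13.7 to 27.3 CPM against 41.4 to 52.4 CPM. Kcnd3, Kcnv2, Kcnj2, Kcnj15, Kcnn2, Kcnt2, Kcnmb1 and Kcnq1ot1 were the other lower genes, with ratios of mean noted to mean other level between 0.465 for Kcnmb1 and 0.607 for Kcnd3.

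Higher in the noted hearts were Kcnk3, Kcng2, Kcnj12, Kcnj8, Kcnn1, Kcnj14, Kcnn4 and Kcnd3os. Kcnk3 reached 867 CPM in WT/E3A replicate 1 and 681 CPM in WT/WT replicate 1, with 481 and 534 CPM in E3A/E3A replicates 1 and 2, against 380.1 to 422 CPM in the others. Kcng2 had 210.4 to 387 CPM in the noted hearts, against 149 to 202.5 CPM, and Kcnj8 69.2 to 97.4 CPM against 38.7 to 49.9 CPM. Of the silent subunits, Kcng2 was higher and Kcnv2 lower. Kcnip2 (201 to 232 CPM, against 208 to 261) and Kcnj11 (187 to 204 CPM, against 185 to 208.5) overlapped, while their partners Kcnd2 and Abcc9 (326 to 441 CPM, against 579 to 709) were lower. Abcc8 went the other way, at 88.4 to 112.2 CPM against 68.1 to 77.55 CPM. In the same libraries smooth muscle markers summed to 599 to 783 CPM, against 406 to 493.1, and pericyte markers to 601 to 668 CPM, against 545 to 604. Of 6 smooth muscle markers 2 lay wholly higher and 0 wholly lower, and of 6 pericyte markers 3 lay wholly higher and 1 wholly lower. Macrophage markers also summed higher, to 130 to 161 CPM against 97.1 to 117, with 2 markers wholly higher and 2 wholly lower. The part of these cells in the levels was not tested.

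**Figure D4:**
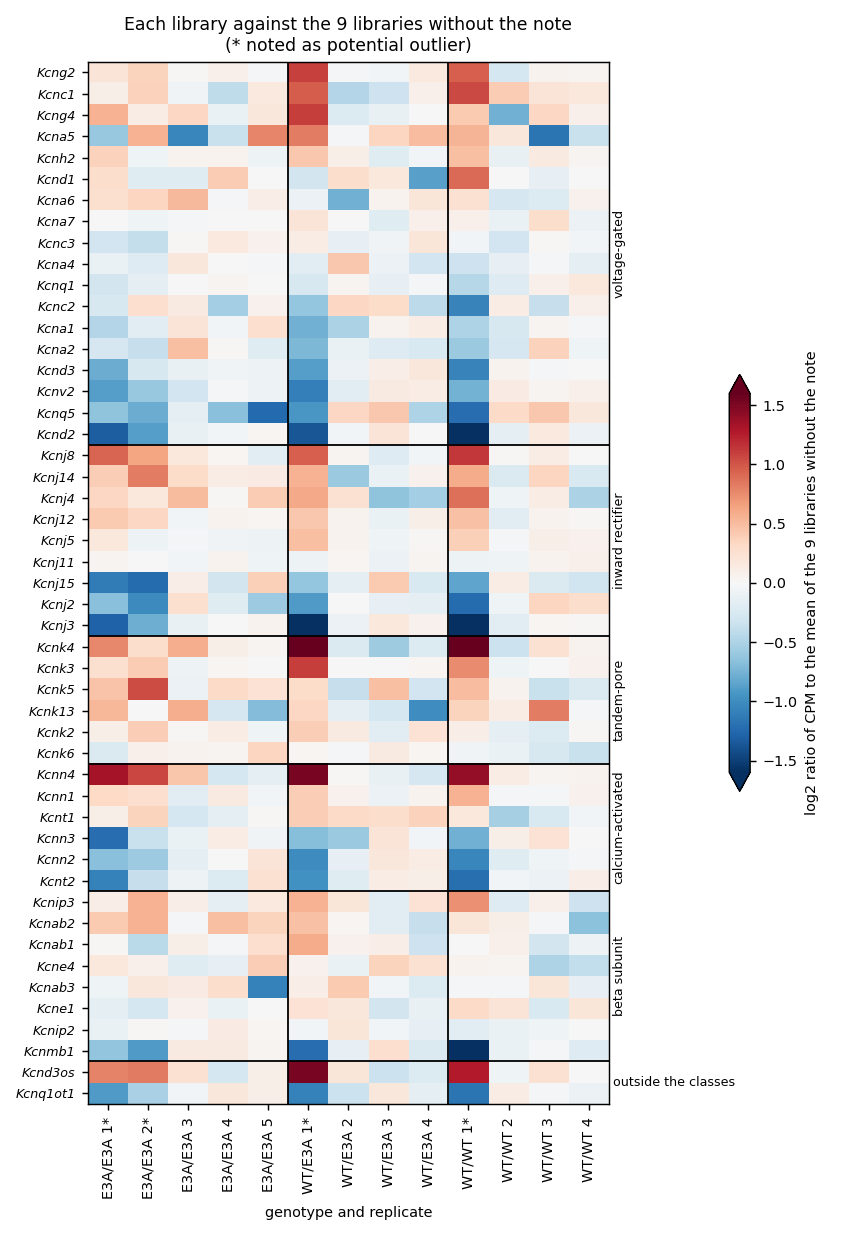
Log2 ratio of CPM in each of 13 libraries for 49 of the 51 genes to the gene's mean over the 9 libraries without the note, by class, with blue lower and red higher. Asterisks mark the noted libraries; colours stop at 1.6 on either side, which a few ratios pass. Kcnd2 and Kcnj3 are blue and Kcnn4 and Kcnd3os red in all 4 noted libraries, while Kcna5 changes colour between hearts of E3A/E3A and of WT/WT.

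Among the 35 potassium channel genes with a mean of at least 2 CPM, Kcna5 varied most between hearts that carry no note. It encodes the pore of the ultrarapid delayed rectifier current (chromosome 6, 126532551 to 126535412, minus strand, GRCm38). Its level was 24.7, 55.4, 18.1, 29.4 and 64.7 CPM in E3A/E3A replicates 1 to 5, against 66.1, 36.8, 47.8 and 52.9 CPM in WT/E3A and 54.8, 42.5, 16.7 and 29.3 CPM in WT/WT. Low and high hearts occurred in E3A/E3A and WT/WT alike, and the lowest and highest of the 9 hearts without the note, WT/WT replicate 3 and E3A/E3A replicate 5, differed 3.88-fold. The SD of its log2 CPM over these 9 hearts was 0.671, the largest of the 35. Among the genes below 2 CPM, Kcnq5 had 0.728 and a 4.29-fold range, and Kcnk13 0.678 and a 4.51-fold range. With 0.1 CPM added before the log the SD of Kcna5 was 0.668, and 0.339% of the 11797 genes with a mean of at least 2 CPM had a larger one. Over WT/WT the log2 fold change stood at 0.30 (SE 0.542, edgeR adjusted p = 0.959) for E3A/E3A and 0.62 (SE 0.541, adjusted p = 0.883) for WT/E3A.

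The levels of other genes were set against Kcna5 over the 9 hearts, a relation chosen after its values were seen. Pearson's r was computed for 14386 genes with an exact two-sided permutation test over 362880 pairings and Benjamini-Hochberg adjustment over all of them. Hearts were permuted without regard to genotype or title prefix, so differences between genotypes or prefixes can enter r and its p. Among the 50 other potassium channel genes 0 passed an adjusted p under 0.05, beside 1.29% of all genes, and 7 (14%) had an unadjusted exact p under 0.05, beside 17.7% of all genes, so the share was not above the background. The nearest positive one was Kcne4, at 2.69, 2.81 and 4.07 CPM in E3A/E3A replicates 3 to 5, against 2.87, 3.98 and 3.66 CPM in WT/E3A replicates 2 to 4 and 3.19, 2.16 and 2.34 CPM in WT/WT replicates 2 to 4. Its r was 0.88 (exact p = 0.00217, adjusted p = 0.0794) and its Spearman rho 0.967 (exact p = 0.000165). The inverse ones included Kcna2, a Shaker-family pore, with r = -0.92 (exact p = 0.000832, adjusted p = 0.0555) and rho = -0.817 (exact p = 0.0108). Kcnk13 followed with r = -0.88 (exact p = 0.00241, adjusted p = 0.083) and rho = -0.867 (exact p = 0.00451), then Kcnj8 with r = -0.86 (exact p = 0.00448, adjusted p = 0.106) and Kcnj2 with r = -0.85 (exact p = 0.00367, adjusted p = 0.0977), both with the same rho as Kcna2. Without the 2 hearts farthest from the median, WT/WT replicate 3 and E3A/E3A replicate 3, r was 0.93 for Kcne4, -0.76 for Kcna2, -0.66 for Kcnk13, -0.73 for Kcnj8 and -0.74 for Kcnj2. A title prefix holds at most 4 of these hearts, so r was not computed within prefixes.

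Genes outside the family were set against Kcna5 in the same way. Irx3, a transcription factor of the ventricular conduction system, is the only 1 of the 32 partner genes listed below that is shown here. It was chosen after its values were seen, and how many other partner genes passed is not given. Irx3 had r = -0.95 (exact p = 0.000198, adjusted p = 0.0358) and rho = -0.917 (exact p = 0.00131), and r = -0.91 without the same 2 hearts. A further 5 genes were also chosen after their values were seen: the clock genes Per1, Per2 and Arntl, the glucocorticoid-induced gene Tsc22d3, and Klf15, a circadian transcription factor of the heart. Tsc22d3 had r = 0.97 (exact p = 2.205e-05, adjusted p = 0.0258) and rho = 0.983 (exact p = 4.96e-05), and Per1 had r = 0.94 (exact p = 0.00014, adjusted p = 0.0342) and rho = 0.95 (exact p = 0.000353). Without the 2 farthest hearts r was 0.98 for Tsc22d3 and 0.85 for Per1. Per1 stood at 40.8, 97.1 and 130 CPM in E3A/E3A replicates 3 to 5, against 109.8, 116 and 126 CPM in WT/E3A replicates 2 to 4 and 94.1, 33.2 and 78.9 CPM in WT/WT replicates 2 to 4, so that the 2 hearts lowest in Kcna5 were also lowest in Per1. Per2 had r = 0.91 (exact p = 0.000852, adjusted p = 0.0555) and rho = 0.933 (exact p = 0.00075), Klf15 r = 0.82 (exact p = 0.00802, adjusted p = 0.130) and rho = 0.817 (exact p = 0.0108), and Arntl r = -0.67 (exact p = 0.0538, adjusted p = 0.291) and rho = -0.817 (exact p = 0.0108). Whether these genes bear on the level of Kcna5 was not tested.

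**Figure D5:**
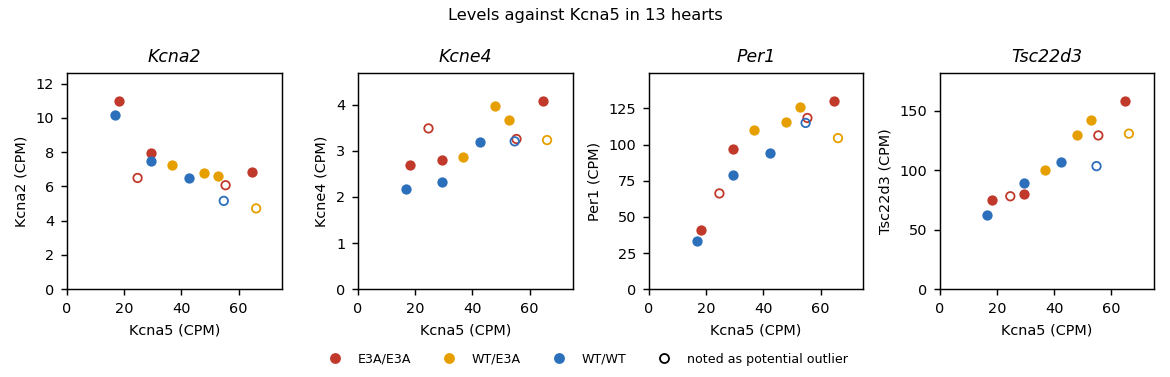
CPM of Kcna2, Kcne4, Per1 and Tsc22d3 against CPM of Kcna5 in 13 hearts, coloured by genotype. Filled points are the 9 hearts without the note and open points the 4 noted ones; in the filled points hearts with more Kcna5 have less Kcna2 and more of the other 3, with r of -0.92, 0.88, 0.94 and 0.97.

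The promoters of Kcna5 and of the 5 potassium channel genes with the largest r to it in size, Kcne4, Kcna2, Kcnk13, Kcnj8 and Kcnj2, are shown, although none of these relations passed the adjusted test. Each sequence runs 5′ to 3′ on the gene's strand, from 250 bases before to 50 bases after the RefSeq start in GRCm38.p6, and capitals mark CACGTG, the E-box that clock activators bind.
Kcna5: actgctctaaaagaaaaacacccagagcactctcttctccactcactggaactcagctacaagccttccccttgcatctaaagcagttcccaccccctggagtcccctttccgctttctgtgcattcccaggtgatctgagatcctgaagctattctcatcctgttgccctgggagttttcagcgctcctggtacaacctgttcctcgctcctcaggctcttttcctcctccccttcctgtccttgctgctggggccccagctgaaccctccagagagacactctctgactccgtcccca
Kcne4: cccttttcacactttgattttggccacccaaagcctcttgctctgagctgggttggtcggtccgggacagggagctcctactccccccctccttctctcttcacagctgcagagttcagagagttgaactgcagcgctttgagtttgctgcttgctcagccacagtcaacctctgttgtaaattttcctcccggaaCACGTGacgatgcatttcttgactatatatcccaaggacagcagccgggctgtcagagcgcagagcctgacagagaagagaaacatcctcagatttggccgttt
Kcna2: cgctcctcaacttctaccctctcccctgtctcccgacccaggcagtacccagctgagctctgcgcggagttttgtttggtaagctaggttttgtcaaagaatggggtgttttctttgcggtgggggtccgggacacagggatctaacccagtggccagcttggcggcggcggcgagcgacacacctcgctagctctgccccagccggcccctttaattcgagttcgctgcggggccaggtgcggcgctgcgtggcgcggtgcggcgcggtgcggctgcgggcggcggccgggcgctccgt
Kcnk13: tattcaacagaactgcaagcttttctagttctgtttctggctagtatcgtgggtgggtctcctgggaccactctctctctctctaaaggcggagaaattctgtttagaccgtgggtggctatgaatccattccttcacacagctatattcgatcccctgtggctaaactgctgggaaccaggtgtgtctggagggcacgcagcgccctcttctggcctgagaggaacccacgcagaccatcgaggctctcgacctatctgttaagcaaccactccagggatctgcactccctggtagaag
Kcnj8: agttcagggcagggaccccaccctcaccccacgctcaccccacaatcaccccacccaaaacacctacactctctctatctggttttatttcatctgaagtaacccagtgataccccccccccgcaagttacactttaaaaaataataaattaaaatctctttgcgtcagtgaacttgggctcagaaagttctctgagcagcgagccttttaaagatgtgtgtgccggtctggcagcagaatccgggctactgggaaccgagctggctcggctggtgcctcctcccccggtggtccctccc
Kcnj2: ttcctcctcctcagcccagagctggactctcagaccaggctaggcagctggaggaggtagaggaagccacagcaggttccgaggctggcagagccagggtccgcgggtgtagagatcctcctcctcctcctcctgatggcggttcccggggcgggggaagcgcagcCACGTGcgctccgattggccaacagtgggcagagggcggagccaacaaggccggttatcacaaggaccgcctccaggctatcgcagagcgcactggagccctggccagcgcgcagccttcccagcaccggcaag
The Kcna5 window is chr6:126535506-126535805 and the Kcnj8 window chr6:142571565-142571864, both on the minus strand. On the plus strand are the Kcne4 window chr1:78816661-78816960, the Kcna2 window chr3:107101317-107101616, the Kcnk13 window chr12:99964249-99964548 and the Kcnj2 window chr11:111065914-111066213. CACGTG, its own reverse complement, starts 54 bases before the start of Kcne4 and 84 bases before that of Kcnj2, and is not in the other 4 windows. Of the 51 genes, 35 matched the table with 49 promoters in all, of which 6 held CACGTG (12.2%), beside 7.15% of 32851 promoters of the same length. Counted by gene, 5 of the 35 held it in at least 1 promoter (14.3%), beside 8.09% of 27025 genes. The 5 were Kcne4, Kcnj2, Kcnab1, Kcnk5 and Kcnn4. AGAACA, the glucocorticoid receptor half-site, was searched on both strands and was in 7 of the 49 promoters (14.3%), beside 19% of all promoters. TTATGTAA, the D-box, was in 0 of the 49, beside 0.938%. Neither was in the 6 windows shown. A match is a run of letters and not a shown binding site.

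Genes that work with the channels were followed in the same fits. The list held 32 genes: 17 channel partners and regulators, 4 pacemaker channels of the Hcn family, and 11 subunits of the sodium pump and chloride cotransporters. Of these, 28 were tested, and edgeR called 0 in each comparison over both sets of libraries. At an unadjusted p under 0.05 there were 0 in each comparison over 13 libraries. Over 9 libraries there were 3 of the 28 in E3A/E3A over WT/WT, 4 in WT/E3A over WT/WT and 4 in E3A/E3A over WT/E3A. The shares of all genes beside these counts were 7.69%, 6.36% and 6.91%. Median log2 fold changes of the 28 genes over 9 libraries were 0.057, 0.018 and -0.024 in that order. Hcn2, a pacemaker channel gene, averaged 38.1 CPM in E3A/E3A, 36.2 in WT/E3A and 31.0 in WT/WT, with a log2 fold change of 0.30 (SE 0.0805, edgeR adjusted p = 0.211) for E3A/E3A over WT/WT. Hcn4, the main pacemaker channel gene of the sinus node, averaged 22.1 CPM in E3A/E3A, 18.1 in WT/E3A and 18.6 in WT/WT, with 0.26 (SE 0.0884, adjusted p = 0.415) against WT/WT. The 6 conduction system markers, which include Hcn4, summed to 78.2 to 83.9 CPM in E3A/E3A, 63.9 to 78.0 CPM in WT/E3A and 62.6 to 68.1 CPM in WT/WT.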

How the data were processed

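The authors deposited counts of reads for each gene symbol in 13 hearts. The tools were the aligner STAR 2.4.0 and the counter featureCounts 1.4.4, with mm10/GRCm38, per the submitters' processing notes; strand setting and treatment of reads that fit several genes are not given in the sources used here. Libraries were poly(A)-selected and read as 100-nucleotide single ends, per the labels. Genotypes came from the labels, which describe separate hearts, and p-values measure the spread between them.

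Tests used edgeR 4.0.16 (R 4.3.3) after filterByExpr on genotype (14387 genes tested with 13 libraries, 14373 with 9) and TMM scaling, with robust quasi-likelihood fits with genotype as the sole factor, and Benjamini-Hochberg adjustment over all genes tested, with calls at an adjusted p under 0.05. DESeq2 1.42.0, limma 3.58.1, RLE and upper quartile scaling, no filter, title prefix or outlier note as a term, a member limit of 1 CPM and leaving out each library were alternatives. CPM were scaled over 13 libraries, and relations with Kcna5 used log2 of CPM plus 0.1; lengths are GENCODE exon unions on GRCm38 and promoters RefSeq's. The script was tested on simulated data. Replicate spread, as edgeR's biological coefficient of variation, came to 28.9% (13 libraries) or 7.85% (9). Depth was 20.1 to 52.6 M reads, and intervals cover counting error and the spread between hearts.

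Genes named were any called, the 3 highest of each class, the 5 with the lowest p in each comparison and fit, genes of the cardiac currents and those next to the limit; other names were chosen after their values were seen. Of the 51 genes, 2 are in every count but are not reported here by gene, and the figures leave them out. The members, the lists and the tests were chosen with earlier results of these data known.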

Additional observations from a re-analysis of the deposited data

Results flagged for a closer look

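Within a genotype, 13 of 108 sets of 4 or 5 hearts had a heart set apart from the rest, measured as its gap to the nearest heart over the whole range; chance gives about 1 in 20. All 13 were noted libraries: E3A/E3A replicate 1 in 2 sets, WT/E3A replicate 1 in 4 sets and WT/WT replicate 1 in 7 sets. In WT/E3A replicate 1, Kcnk3 at 867 CPM had a gap share of 0.988, Kcnk4 at 1.34 CPM 0.927, Kcng2 at 387 CPM 0.876 and Kcnj8 at 86.6 CPM 0.850, each the highest. In WT/WT replicate 1 the highest were Kcnj8 at 97.4 CPM (0.933), Kcnk3 at 681 CPM (0.873), Kcnk4 at 1.44 CPM (0.848), Kcnn1 at 28.1 CPM (0.846) and Kcnd3os at 2.59 CPM (0.842). Its lowest were Kcnv2 at 8.82 CPM (0.884) and Kcnd3 at 13.5 CPM (0.882). In E3A/E3A replicate 1 Kcnj5 at 125 CPM (0.765) and Kcnh2 at 160.2 CPM (0.725) were the highest.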

How the results depend on the processing

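Among the 36 genes named by the rule, no log2 fold change reversed its sign where either run called the gene. Since edgeR called 0 genes, this check could hardly have found a reversal. Signs did change among genes that were not called. For Kcng2 the log2 fold change of E3A/E3A over WT/WT was -0.14 over 13 libraries and 0.080 over 9. For Kcnk4 it was -0.36 and 0.39. In E3A/E3A over WT/WT over 13 libraries the count of genes called was 0 with edgeR and 1 with both DESeq2 and limma-voom with quality weights. The share of all genes called by the latter tools is not given here, and the cause was not tested. Leaving out each library in turn gave 0 calls in all 3 comparisons over 13 and 9 libraries. With title prefix as a term, 6 values over 13 libraries and 32 over 9 moved by more than their spread; over 9 libraries comparisons with WT/WT then rest on a single WT/WT heart. With a member limit of 1 CPM, 40 genes remained. Low counts limit Kcnq5 (5 to 34 reads a library) and Kcnt1 (26 to 61). No paired analysis was possible because replicate numbers were given in accession order and pair no hearts.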
